A study of Mus musculus with 16 samples.

Results

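Branched-chain amino acid breakdown was followed through 10 genes in gonadal white adipose tissue, the fat pad beside the epididymis of male mice. The genes were taken by symbol from the array annotation. Each had 1 probe set and none shared a probe set with another gene, so all 10 were measured among 22180 genes. Samples came from male mice of pure-bred C57BL/6 background, 3 to 4 months old, with no mutant allele or drug given in the labels. Of the samples, 8 came from fed mice with food available without limit and 8 from mice fasted for 16 hours, and in both groups the tissue was taken in the morning. Values are log2 expression from Affymetrix whole-transcript arrays, on which 1 unit is a doubling. Whether 16 separate mice were used is not stated in the labels, and every p-value here reflects only the spread among the samples, which may be technical. In a whole-tissue sample, fewer cells of a type and less RNA per cell cannot be told apart. Only transcripts were measured, so every rise or fall given here is of mRNA. Protein amounts, phosphorylation of the complex and flux through the pathway were not measured.

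Leucine, isoleucine and valine are broken down in mitochondria. The aminotransferase BCAT2 first moves their amino group to 2-oxoglutarate, and the branched-chain keto acid dehydrogenase (BCKDH) complex then removes a carboxyl group in a step that cannot be reversed. The complex is switched off when the kinase BCKDK phosphorylates its E1 alpha subunit and switched on when the phosphatase PPM1K removes that phosphate. Past the complex the pathway splits, with leucine going to acetyl-CoA and acetoacetate, valine to propionyl-CoA, and isoleucine to both acetyl-CoA and propionyl-CoA. In fat these carbons are known to feed fatty acid synthesis and the citric acid cycle.

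Fasting was accompanied by changes in both directions along the pathway, of less than 2-fold in every member. Calls rest on limma's moderated test with an adjusted p under 0.05, where the Benjamini-Hochberg adjustment ran over all 22180 genes. Ppm1k, Hibch and Bckdhb rose. Pcca, Mccc1, Bcat2 and Bckdk fell, and Bckdha, Dbt and Ivd were not called. That made 7 of 10 members, 3 higher and 4 lower, where 19.2% of all genes were called, 8.49% higher and 10.7% lower. The members were bright, with means at percentiles 83.1 to 97.7 of all genes, and dim genes are seldom called. When only the 11090 genes with a mean at or above the median were fitted, 4577 were called, 1982 higher and 2595 lower. That larger share is the closer comparison for the members. The members' median log2 difference was -0.12, against -0.0042 over all genes. Higher calls made up 44.3% of all 4251 calls, and 54.7% of 3817 calls when each array's median was subtracted first, a scaling under which 3 members were still higher and 3 lower.

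**Figure D1:**
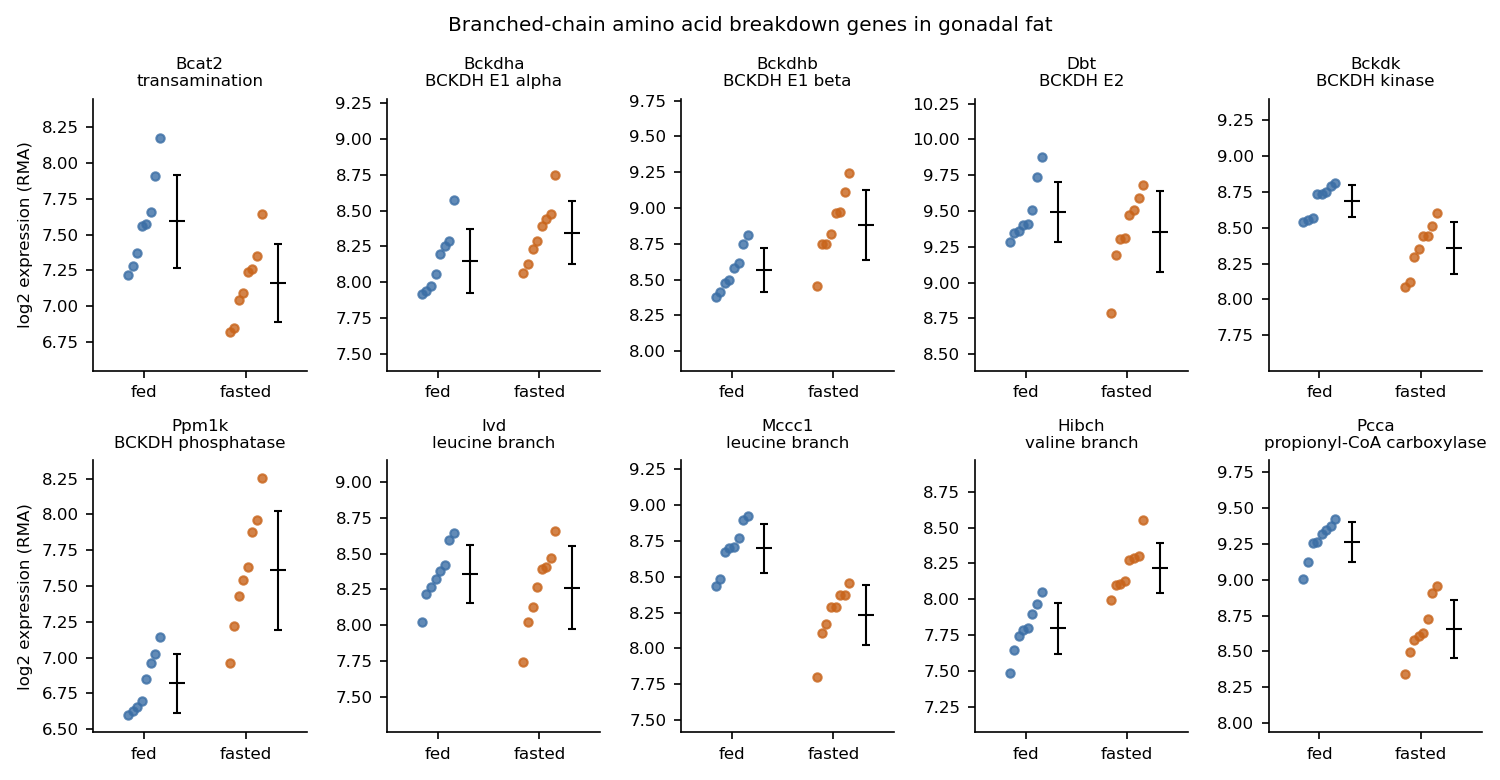
Log2 expression of the 10 genes in each of 16 samples, fed (blue) and fasted (orange), ordered by value within a group, with the group mean and SD beside the points and every panel spanning the same number of log2 units. The points of Pcca do not overlap between groups, and Ppm1k spreads from 6.96 to 8.25 among fasted samples.

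The transcript of the entry step fell. Bcat2, the mitochondrial aminotransferase, ranged from 7.21 to 8.18 on the log2 scale in fed samples, with a median of 7.57. In fasted samples it ranged from 6.82 to 7.64, with a median of 7.17. The groups overlapped, and the highest fasted sample (replicate 8) lay above the fed median. The means were 7.59 ± 0.32 and 7.16 ± 0.27 (SD, n = 8 per group), a log2 difference of -0.43 (SE 0.14, limma adjusted p = 0.0344). This call was lost without any 1 of fed replicates 1, 3, 5, 6 and 7 or fasted replicates 1, 2, 4 and 7 (limma adjusted p = 0.0505 to 0.0703), and when array medians were subtracted (0.0872). Bcat1, the cytosolic aminotransferase, had a log2 difference of -0.32 (SE 0.12) and was not called (limma adjusted p = 0.0892).

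Of the BCKDH complex, 1 member subunit was called higher and the other two were not called. Bckdhb, which encodes E1 beta, ranged from 8.38 to 8.81 in fed samples (median 8.54). The same gene ranged from 8.46 to 9.25 in fasted samples (median 8.89), so 5 of 8 fasted samples lay above the fed range while replicate 1 lay at its low end. Its log2 difference was 0.32 (SE 0.10, limma adjusted p = 0.0321). The call was lost without any 1 of fed replicates 1, 2, 6 and 8 or fasted replicates 3, 5, 6 and 8 (adjusted p = 0.0563 to 0.0672, limma). Bckdha, which encodes E1 alpha, the subunit that carries the regulatory phosphate, went from 8.15 ± 0.22 to 8.35 ± 0.22 (SD, n = 8 per group). That difference of 0.20 had a 95% interval of -0.03 to 0.42 and was not called (limma adjusted p = 0.246). Dbt, which encodes the E2 acyltransferase core, stood at 9.49 ± 0.21 in fed and 9.36 ± 0.28 in fasted samples. Its difference of -0.13 had a 95% interval of -0.38 to 0.11 (limma adjusted p = 0.533). Dld, the E3 subunit that is shared with pyruvate dehydrogenase, fell by 0.40 on the log2 scale (SE 0.070, limma adjusted p = 3.28e-04).

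Whether subunits changed by different amounts was tested on the difference between their log2 values within each array, with a two-sided exact permutation test over samples and adjustment over the 3 pairs examined. The 3 pairs were chosen with earlier results of these data known, so the p-values describe the separation and are not an independent test. Such a difference carries no information on which subunit is more abundant, since probe sets differ in brightness. Dbt minus Bckdha lay between 1.15 and 1.54 in fed samples and between 0.73 and 1.19 in fasted samples. Its mean fell by 0.33 (SE 0.069), from 1.34 ± 0.12 to 1.01 ± 0.15 (SD, n = 8; exact permutation p = 4.66e-04, adjusted p = 6.99e-04), although neither gene was called alone. Bckdhb minus Bckdha changed by 0.12 (SE 0.086), with groups that overlapped widely (exact permutation p = 0.180, adjusted p = 0.180, n = 8 per group). A difference between the changes of the 2 E1 subunits was not detected with 8 samples per group, which does not show that they changed alike.

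Transcripts of the kinase and the phosphatase of the complex moved in opposite directions. Ppm1k, the phosphatase that activates the complex, ranged from 6.60 to 7.14 in fed samples (median 6.78). It ranged from 6.96 to 8.25 in fasted samples (median 7.59). Fasted replicate 4 was the only fasted sample within the fed range, and fasted replicate 8 was the highest. The rise was 0.79 on the log2 scale (SE 0.15), the largest change of the 10 genes (limma adjusted p = 8.14e-04). Bckdk, the kinase that inhibits the complex, lay between 8.54 and 8.81 in fed samples (median 8.73). In fasted samples it lay between 8.09 and 8.61 (median 8.40), with fasted replicate 2 highest. It fell by 0.33 on the log2 scale (SE 0.080, limma adjusted p = 0.00613). Within arrays, Ppm1k minus Bckdk went from -1.87 ± 0.22 to -0.75 ± 0.35 (SD, n = 8), a change of 1.12 (SE 0.15). The fed samples reached at most -1.59 and the fasted samples were at least -1.22, so the groups did not overlap. The exact permutation p was 1.55e-04, the smallest that 8 against 8 samples allow (adjusted p = 4.66e-04). The opposite directions of these genes were known when the pair was chosen. The separation and its p-value therefore add no evidence beyond the calls of the single genes.

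**Figure D2:**
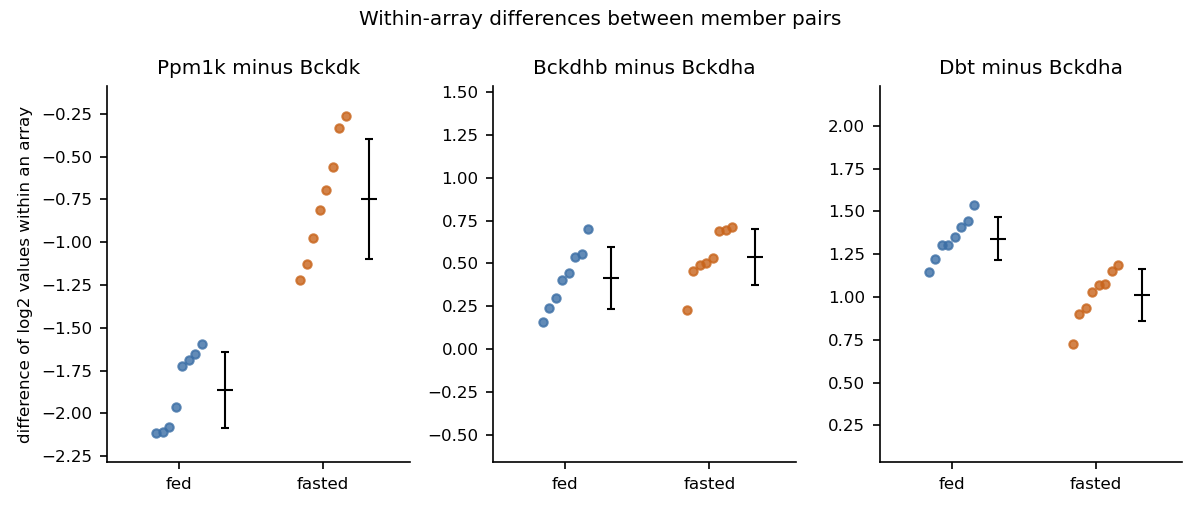
Difference of log2 values within an array for 3 pairs of genes, fed (blue) and fasted (orange), with mean and SD beside the points. Ppm1k minus Bckdk separates the groups, Dbt minus Bckdha overlaps only near 1.15 to 1.19, and Bckdhb minus Bckdha overlaps widely.

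The DNA before the annotated starts of these opposed regulators is shown with that of Pcca, the 1 member whose groups did not overlap. Each run holds the 250 bases before the start, read 5′ to 3′ on the gene's strand, from RefSeq on GRCm38.p6, whose promoter table matched 9 of the 10 members. Capitals mark matches on either strand to AGGTCA (a nuclear receptor half-site), TGTTCT (a glucocorticoid receptor half-site), GTAAACA (a forkhead box O site), CACCC (a Kruppel-like factor core) or CCAAT (the CCAAT box). The Ppm1k window is chr6:57535488-57535737 on the minus strand, that of Bckdk is chr7:127903823-127904072 on the plus strand, and that of Pcca is chr14:122484115-122484364 on the plus strand.
Ppm1k: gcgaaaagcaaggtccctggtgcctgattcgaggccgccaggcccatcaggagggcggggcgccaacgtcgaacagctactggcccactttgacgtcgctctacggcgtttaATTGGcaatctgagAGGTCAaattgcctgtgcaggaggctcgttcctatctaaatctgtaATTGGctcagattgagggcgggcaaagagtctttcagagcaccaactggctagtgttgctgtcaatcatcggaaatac
Bckdk: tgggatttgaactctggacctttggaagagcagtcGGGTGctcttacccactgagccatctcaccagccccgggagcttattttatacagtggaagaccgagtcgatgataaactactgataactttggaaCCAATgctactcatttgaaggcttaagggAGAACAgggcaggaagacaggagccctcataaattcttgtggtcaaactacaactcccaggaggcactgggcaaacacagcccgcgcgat
Pcca: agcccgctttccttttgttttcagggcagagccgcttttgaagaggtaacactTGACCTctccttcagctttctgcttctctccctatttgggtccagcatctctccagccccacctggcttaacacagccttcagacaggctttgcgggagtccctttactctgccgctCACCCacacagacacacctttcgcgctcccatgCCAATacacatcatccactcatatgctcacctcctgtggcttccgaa
Ppm1k held 1 AGGTCA match and 2 CCAAT matches, both of the latter on the opposite strand, and no CACCC or TGTTCT. Bckdk held 1 match to TGTTCT on the opposite strand. It also held 1 CACCC match on the opposite strand and 1 CCAAT match, but no AGGTCA. Over the 9 members, AGGTCA was found in 3 windows, TGTTCT in 2, CACCC in 6, CCAAT in 6 and GTAAACA in 0. Of all 32851 windows in the table, 14.0% held AGGTCA, 16.1% TGTTCT, 52.0% CACCC, 33.8% CCAAT and 3.17% GTAAACA. None of these letters was found in the windows of Bckdha and Hibch. A match describes letters only, and no binding was measured.

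On the leucine branch 1 of the measured carboxylase subunits fell, and Ivd was not called. Ivd, isovaleryl-CoA dehydrogenase, ranged from 8.02 to 8.64 in fed and from 7.74 to 8.66 in fasted samples, with nearly equal medians of 8.35 and 8.33. Its log2 difference was -0.097 (95% interval -0.35 to 0.15, limma adjusted p = 0.679). Mccc1, the biotin-carrying subunit of methylcrotonoyl-CoA carboxylase, ranged from 8.44 to 8.92 in fed samples (median 8.70). In fasted samples it ranged from 7.80 to 8.45 (median 8.29), and only fasted replicate 3 reached the low end of the fed range. It fell by 0.47 on the log2 scale (SE 0.095, limma adjusted p = 0.00138). Mccc2, the other subunit of that carboxylase, stood at 8.59 ± 0.12 and 8.56 ± 0.26 (SD, n = 8; limma adjusted p = 0.920). Whether the 2 subunits differed in their change was not tested.

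On the valine branch Hibch rose. Hibch, which releases 3-hydroxyisobutyrate from coenzyme A, ranged from 7.49 to 8.05 in fed samples (median 7.79). It ranged from 8.00 to 8.55 in fasted samples (median 8.20), with only fasted replicate 1 below the highest fed sample. The log2 difference was 0.42 (SE 0.089, limma adjusted p = 0.00197). Acad8, the acyl-CoA dehydrogenase that acts earlier on this branch, fell by 0.33 (SE 0.10, limma adjusted p = 0.0231). Hibadh and Aldh6a1, which act after Hibch, had log2 differences of 0.12 (SE 0.086) and 0.051 (SE 0.084) and were not called.

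At the propionyl-CoA end Pcca fell. Pcca, the biotin-carrying subunit of propionyl-CoA carboxylase, ranged from 9.00 to 9.42 in fed samples (median 9.29). It ranged from 8.34 to 8.96 in fasted samples (median 8.62), so every fasted sample lay below every fed sample. Over all genes, 6.48% had groups that did not overlap, 3.02% with higher and 3.45% with lower values in fasted samples. Pcca was lower by 0.61 on the log2 scale (SE 0.089, limma adjusted p = 5.55e-05). Its partner subunit Pccb had a log2 difference of -0.16 (SE 0.079, limma adjusted p = 0.196). Mcee, the epimerase that acts next, fell by 0.55 (SE 0.068, limma adjusted p = 1.03e-05). Mmab, which makes the cobalamin cofactor of the mutase after it, fell by 0.76 (SE 0.096, limma adjusted p = 1.13e-05). The mutase itself, Mmut, was not called (log2 difference -0.15, SE 0.10).

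Of the 20 further breakdown genes listed, 19 were measured, and 1 rose, 7 fell and 11 were not called, with a median log2 difference of -0.17. All but 1 of the 19 had a mean at or above the median of all genes. Of the 11090 genes with such a mean, 4577 were called, 1982 higher and 2595 lower, against 19.2% of all genes. When these 11090 genes were fitted alone, 18 of the list were among them, with 1 called higher and 7 lower. The total of calls in the list is thus near the share in that fit, but more of its calls were lower. Whether the directions differed from that fit was not tested. The 1 that rose was Hsd17b10, the dehydrogenase of the isoleucine branch that also serves mitochondrial tRNA processing. It went from 7.64 ± 0.15 to 8.21 ± 0.17 (SD, n = 8), a difference of 0.57 (SE 0.084, limma adjusted p = 5.62e-05). Besides Mcee, Mmab, Dld and Acad8, those that fell were Acat1, Hadh and Oxct1, by 0.39, 0.40 and 0.43 on the log2 scale. These 3 enzymes also act in ketone body use or fatty acid oxidation, and they, Dld and Acad8 are named because the count was small, after their values were seen. With the members included, 4 of 29 genes rose and 11 fell.

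**Figure D3:**
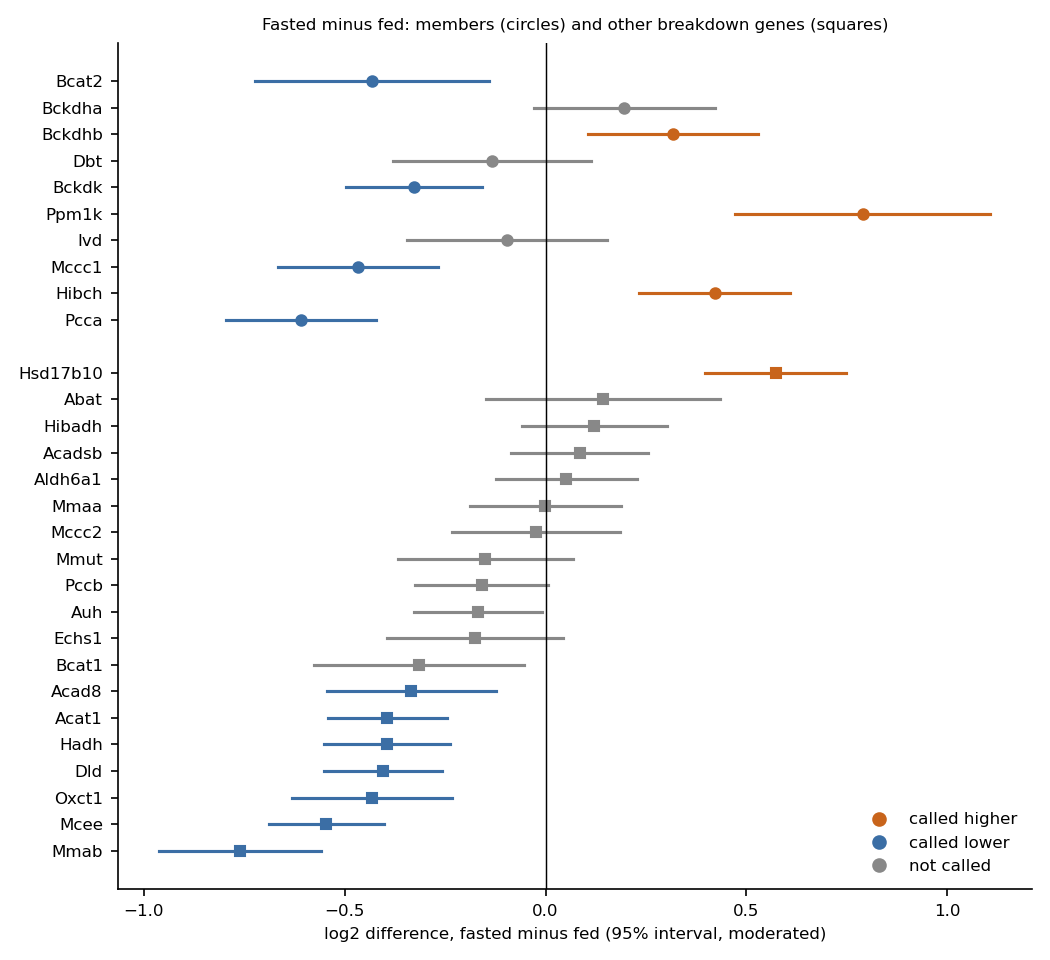
Log2 difference, fasted minus fed, with its moderated 95% interval for the 10 members (circles, in pathway order) and 19 other breakdown genes (squares, by size). Orange marks genes called higher, blue genes called lower and grey genes not called, and changes of both signs occur among members from -0.61 to 0.79.

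Carriers of large neutral amino acids were read from the same fit. Of 7 measured, 3 rose, 1 fell and 3 were not called, where 8.49% of all genes were called higher and 10.7% lower. The closer comparison is the fit of the 11090 genes with a mean at or above the median. There 4577 genes were called, 1982 higher and 2595 lower. That fit held 6 of the carriers, with 5 called higher and 1 lower. Slc7a8, an exchanger of the cell membrane, rose by 1.34 on the log2 scale (SE 0.086, limma adjusted p = 3.83e-09). Its partner chain Slc3a2 and the carrier Slc43a2 rose by 0.72 (SE 0.099) and 0.53 (SE 0.084). Slc7a5 and Slc43a1 had differences of 0.66 and 0.61 and lay just past the threshold (limma adjusted p = 0.0506 and 0.0505), so that 5 carriers were higher under 6 alternative settings. Slc25a44, which carries branched-chain amino acids into mitochondria, had a difference of -0.30 (SE 0.095, limma adjusted p = 0.0346), a call lost under 13 of 26 alternatives. It is named after its value was seen, as are Slc7a5 and Slc43a1.

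Samples of 1 group differed from each other in many members at once. Fed replicate 3 lay above the fed mean in 10 of 10 members and was the highest fed sample in 9 of them. Fed replicate 8 lay above it in 0, and fed replicate 2 was the lowest fed sample in 6. Among fasted samples, replicate 8 was the highest in 7 members, replicate 1 the lowest in 6 and replicate 4 the lowest in 4. Fasted replicate 4 was at the same time the highest fasted sample for Pcca. Fed replicates 2 and 3 and fasted replicate 7 were the arrays that stood apart from their groups over all genes, along principal components 2 and 3.

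**Figure D4:**
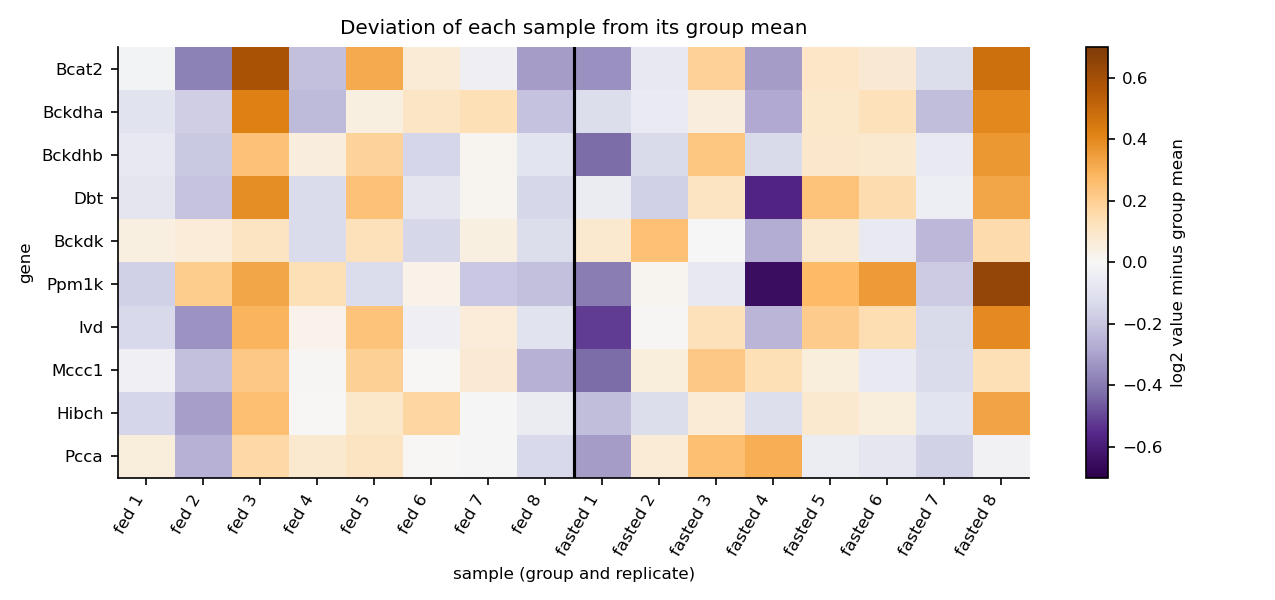
Log2 value of each gene in each sample minus the mean of its group, from purple (below) to orange (above), with fed samples left and fasted samples right of the line. Columns of like colour mark samples in which many members deviate together, such as fed 3 and fasted 8, with mean deviations of 0.299 and 0.322.

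Correlations between members were computed within each group, since fed and fasted samples form separate clusters. Of 45 pairs, 44 had a positive Pearson's r among fed samples (median 0.729) and 41 among fasted samples (median 0.676). By exact permutation with adjustment over all 90 tests, 18 pairs passed in fed and 17 in fasted samples, all positive, and 9 pairs passed in both. By Spearman's rho 5 and 12 pairs passed. In fed samples the closest pair was Bcat2 and Dbt, with r = 0.950 (exact permutation p = 4.46e-04, adjusted p = 0.0131, n = 8) and rho = 0.905 (exact permutation p = 0.00456, adjusted p = 0.0383). Without the 2 samples farthest from the median of Bcat2, r was 0.863. In fasted samples it was Bcat2 and Hibch, with r = 0.958 (exact permutation p = 5.95e-04, adjusted p = 0.0131, n = 8) and rho = 0.905 (exact permutation p = 0.00456, adjusted p = 0.0383). Without the 2 samples farthest from the median of Bcat2, r was 0.866.

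With array medians subtracted, 27 fed and 22 fasted pairs passed. That scaling takes 1 shared value per array from every gene, which can by itself raise r. The larger counts therefore cannot show closer covariation. In the deposited values, the 2 samples farthest from the median of 1 gene of each pair, the earlier in pathway order, were also left out. Extremes of the other gene could stay in. The r of the 18 fed pairs then lay between 0.483 and 0.863 and 2 kept an unadjusted exact p under 0.05. For the 17 fasted pairs r lay between 0.636 and 0.935 and 7 did so. Without fed replicates 2 and 3 and fasted replicate 7, no fed pair passed the adjustment with 6 samples (median r 0.528, 40 of 45 positive, lowest unadjusted exact p = 0.0194), where fewer samples limit the test. With 7 fasted samples 8 pairs passed (median r 0.677). The mean of 8 adipocyte markers lay between 10.83 and 11.11 in fed and between 10.85 and 11.10 in fasted samples. Across fasted samples its r with the members lay between 0.369 and 0.853, and across fed samples between -0.340 and 0.782, with no relation passing exact permutation after adjustment over 60 tests (lowest adjusted p = 0.221, n = 8). The direction in fed samples depended on 2 arrays, since without fed replicates 2 and 8, the farthest from the median of the marker mean, r was negative for 10 of 10 members (-0.927 to -0.336). Without fasted replicates 7 and 8 it was positive for 9 of 10 (-0.0575 to 0.968). The part of the adipocyte markers in the covariation was not tested.

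Bckdk and Ppm1k stood less close to the other members in fed samples. Bckdk had no adjusted call with any member in either group, with median r of 0.481 in fed and 0.345 in fasted samples. Ppm1k had r between 0.0961 and 0.315 with the other members among fed samples and no call. Among fasted samples 5 of its 9 pairs passed, the closest being Bckdha, with r = 0.929 (exact permutation p = 0.00131, adjusted p = 0.0131, n = 8) and rho = 0.952 (exact permutation p = 0.00114, adjusted p = 0.0335). Without the 2 samples farthest from the median of Bckdha, r was 0.810. Whether the correlations of Ppm1k differed between the groups was not tested. Pcca and Mccc1, both biotin-carrying carboxylase subunits, went together in fed (r = 0.879, exact permutation p = 0.00501, adjusted p = 0.0225, rho = 0.810, exact permutation p = 0.0218, adjusted p = 0.0653, n = 8) and in fasted samples (r = 0.862, exact permutation p = 0.00295, adjusted p = 0.0204, rho = 0.881, exact permutation p = 0.00724, adjusted p = 0.0383, n = 8). Without the 2 samples farthest from the median of Mccc1, r was 0.690 and 0.719. Pcca had no other call in fasted samples, where its median r with the other members was 0.125.

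For each member the most similar gene was sought among 10522 non-member genes with a mean at or above the median of all genes and a symbol that is not a clone or predicted name. The measure was Pearson's r of the deviations from the group means over 16 samples, as a description without a test. Mccc1 was most like Pccb, the second subunit of propionyl-CoA carboxylase (r = 0.923). Hibch was most like Hibadh, the dehydrogenase that uses its product (0.912). Bckdhb was most like Aldh6a1, which makes propionyl-CoA from valine carbon (0.895), and Ivd most like Mmut, the methylmalonyl-CoA mutase (0.912). These 4 neighbours came from the list of further breakdown genes, and none of the 4 was called between fed and fasted samples. Bcat2 was most like Slc5a6, the carrier that brings biotin and pantothenate into cells (0.943). The others were the ubiquitin ligase Ubr4 for Ppm1k (0.918), the coenzyme Q gene Coq4 for Bckdk (0.905), the peroxisome gene Pex3 for Dbt (0.882), the small nucleolar RNA Snord104 for Bckdha (0.934) and Pcnx for Pcca (0.852). Ubr4 rose by 0.46 on the log2 scale (SE 0.055, limma adjusted p = 6.13e-06), and the others of the 10 were not called. With array medians subtracted, a scaling that can by itself raise r, these 10 values lay between 0.851 and 0.950. Without the 3 arrays that stood apart r lay between 0.852 and 0.920.

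**Figure D5:**
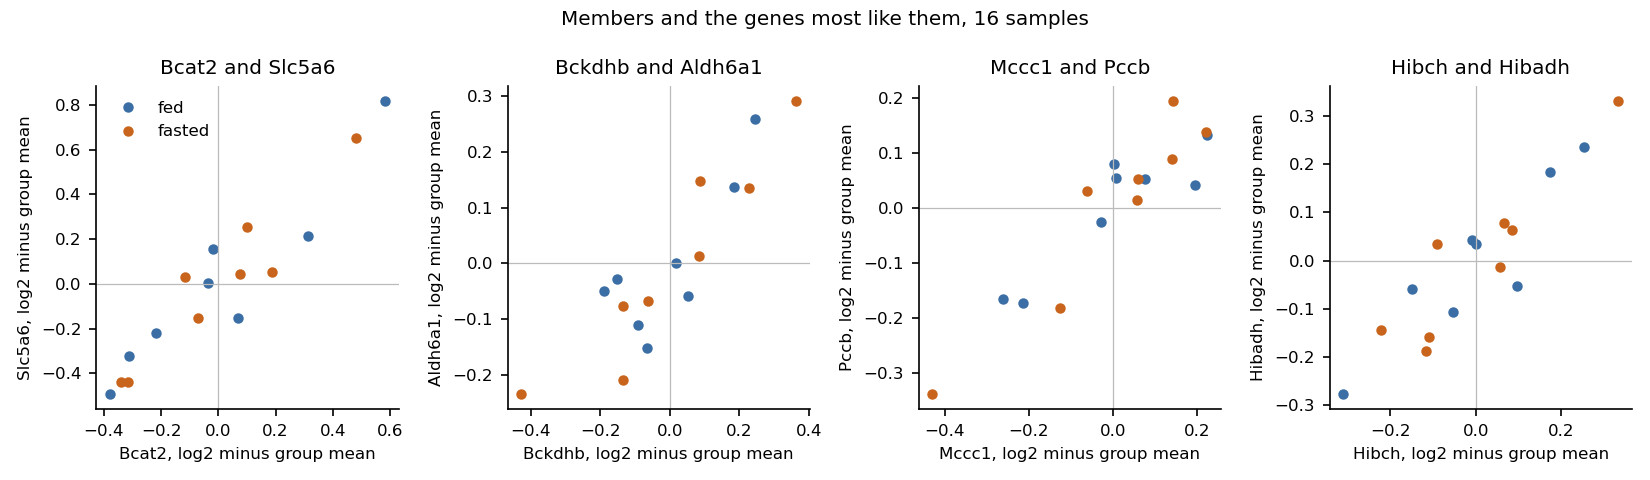
Deviation from the group mean on the log2 scale of 4 members (horizontal) and of the gene most like each (vertical) in 16 samples, fed in blue and fasted in orange. The points of both groups lie along 1 rising line in each panel, with r between 0.895 and 0.943.

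Genes of the pathway were frequent among the close neighbours of most members. When all 10531 genes of that brightness were ranked by that r for each member, 70 of 270 pairings with other pathway genes (25.9%) fell in the top 1%. The count was 11 of 27 for Bcat2, 10 of 27 each for Bckdha, Ivd and Hibch, 9 of 27 each for Bckdhb and Mccc1, and 6 of 27 for Dbt. It was 3 of 27 for Pcca, 2 of 27 for Ppm1k and 0 of 27 for Bckdk. Pairings share genes and samples, and other gene lists were not ranked in this way. Subunits of 1 enzyme or complex were not always the closest. Pccb ranked 16 of 10531 for Pcca and Dbt ranked 18 for Bckdha, while Bckdhb ranked 153 for Bckdha, Dbt 207 for Bckdhb and Mccc2 439 for Mccc1. The phosphatase gene Ppm1k ranked 831 for the kinase gene Bckdk. These partners were chosen after the values were seen.

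Markers of the cells that this fat pad can hold were read in the same arrays. Of 49 measured markers in 8 lists, 7 rose and 4 fell, with a median log2 difference of -0.0094. The shares called over all genes were 8.49% higher and 10.7% lower. Single markers moved as far as the members or farther. The called ones with changes of at least 0.5 are named here after their values were seen. Acta1 of skeletal muscle rose by 2.67 on the log2 scale, the liver apolipoprotein Apoc3 by 0.95 and the macrophage marker Cd68 by 0.88. The lipid droplet gene Plin1 fell by 0.84, the mesothelial keratin Krt19 by 0.55 and the progenitor marker Cd34 by 0.52. Fed and fasted samples did not overlap for 5 of the 49 markers, where 6.48% of all genes had groups without overlap. These were Acta1, Cd68, Plin1, Cd34 and the adipocyte marker Cidec, which rose. The other markers of each of these lists had differences of both signs, though in mesothelium only Wt1 had a positive one. Those of skeletal muscle ranged from -0.091 (Mylpf) to 0.062 (Myh4) and those of liver from -0.28 (Fgb) to 0.58 (Tat). Macrophage markers besides Cd68 ranged from -0.23 (Mrc1, called lower) to 0.090 (Lyz2). Adipocyte markers besides Plin1 ranged from -0.12 (Adipoq) to 0.25 (Cidec, called higher). The rest ranged from -0.50 (Upk3b) to 0.023 (Wt1) for mesothelium and from -0.25 (Pi16) to 0.24 (Pdgfra) for progenitors. Endothelial markers ranged from -0.045 (Emcn, the only negative one) to 0.39 (Pecam1, called higher), with a median of 0.27. From fed to fasted samples the mean of the endothelial markers went from 9.02 to 9.25 and that of the mesothelial markers from 7.35 to 7.06. Whether whole lists shifted was not tested. Adipocyte markers gave 2 higher and 1 lower of 8, motile cilia 0 of 7, liver 1 higher of 8, macrophages 1 higher and 1 lower of 6 and endothelium 2 higher of 6. Mesothelium gave 1 lower of 5, progenitors 1 lower of 4 and skeletal muscle 1 higher of 5. The mean of the liver markers ranged from 5.45 to 8.39 in fed and from 5.79 to 7.93 in fasted samples, and that of the motile cilia markers from 2.76 to 5.04 and from 2.79 to 4.59. The highest cilia means were those of fed replicate 2 and fasted replicate 7, both among the arrays that stood apart over all genes. With all 8 fed samples, r with the members ranged from -0.118 to 0.75 for liver and from -0.788 to 0.374 for cilia. With all 8 fasted samples it ranged from -0.454 to -0.0561 and from -0.66 to -0.153. Without the 2 samples farthest from the median of the marker mean, r ranged from -0.489 to 0.421 for liver and from -0.667 to -0.0764 for cilia in fed samples. In fasted samples it ranged from -0.685 to 0.574 and from -0.714 to 0.234. No member's relation to either mean passed exact permutation with adjustment within a group (lowest adjusted p = 0.221 for cilia and 0.268 for liver, n = 8), and their part in the results was not tested. Without the 3 arrays that stood apart, Ppm1k, Hibch, Pcca, Mccc1 and Bckdk were called as before, and Bcat2 and Bckdhb were not (limma adjusted p = 0.0604 and 0.0507).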

How the data were processed

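Expression was deposited as log2 values per probe set. The submitters' processing notes name RMA, which subtracts background, brings arrays to a common distribution and combines the probes of a set. Its version and any filter were not given in the sources used here, and the log2 scale was read from the deposited values (0.994 to 13.2). Because arrays were normalized to each other, changes are relative to the other transcripts. Per the labels' protocols, 100 ng of total RNA with intact ribosomal bands was labelled. No batch is given in the labels, so none was modelled, and the number of arrays limits the precision.

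Of 41345 probe sets, 23521 carried 1 gene symbol, and the probe set with the highest mean was taken for each of 22180 genes. The 8 fasted and 8 fed samples entered a limma 3.58.1 fit in R 4.3.3, with lmFit on group alone, then eBayes and Benjamini-Hochberg adjustment over all genes. The procedure was tested on simulated data. Exact permutation tests, correlations and figures used Python 3.11.15, numpy 2.4.6 and matplotlib 3.10.9.

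The members, the gene lists, the pairs and the 3 arrays left out were chosen with earlier results of these data known. Named genes were the members, called genes of the 3 further lists with an absolute log2 difference of at least 0.5 (at most 6 a list) and the gene most like each member. Cell type markers were outside that rule. The 5 motifs and the partner ranks were chosen after the values were seen. Of 20, 7 and 10 entries in the lists of further breakdown genes, carriers, and regulators and biotin partners, 19, 7 and 9 were measured. Alternatives were filters on dim genes, other scalings, other variance models, the replicate number as a block, left-out arrays, an exact permutation test and a stricter threshold.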

Additional observations from a re-analysis of the deposited data

How the results depend on the processing

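The calls of Ppm1k, Bckdk, Mccc1, Hibch and Pcca kept their direction and their side of the threshold under all 27 alternatives, and Bckdha, Dbt and Ivd stayed uncalled under them. Bcat2 lost its call under 12 and Bckdhb under 10, with the direction kept, and the cause was not tested. Members called ranged from 2 to 3 higher and from 3 to 4 lower. Over all genes 4251 were called, and 2766 at an adjusted p under 0.01. The changes of Ppm1k minus Bckdk (1.05 to 1.18) and Dbt minus Bckdha (-0.37 to -0.29) kept their calls under the 19 alternatives run for them. Carriers called higher numbered 5 with either filter on dim genes, array medians subtracted, cyclic loess, array weights or the 3 arrays left out. Carriers called lower numbered 0 with array medians subtracted, the replicate block or an adjusted p under 0.01, and from 0 to 1 with single arrays left out. Regulators and biotin partners called higher numbered 1 at an adjusted p under 0.01, and from 1 to 2 with single arrays left out. Covarying pairs numbered 0 in fed and 8 in fasted samples without the 3 arrays, where fewer samples remain, and 5 in fed samples by Spearman's rho.

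Replicate numbers gave no clear sign of pairing. Deviations of same-numbered samples correlated at over 0.1 in 2 of 8 numbers (-0.216 to 0.218). Of 8 fed samples, 2 correlated best with their own number. These values cannot exclude that the numbers pair the samples. With the replicate block 3829 genes were called, and no member's call and no pair's call changed. Each member had 1 probe set, so the alternative of another probe set gave no value. The number of arrays and the unknown probe-level background limit small changes of dim genes.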

Other observations

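Genes that supply or share the cofactors and products of branched-chain breakdown were read from the same limma fit. Of 9 measured regulators and biotin partners, 2 rose, 4 fell and 3 were not called, with a median log2 difference of -0.39. All 9 had a mean at or above the median of all genes, and 4577 of the 11090 such genes were called. Pcx, the pyruvate carboxylase of mitochondria, fell by 0.52 on the log2 scale (SE 0.12, limma adjusted p = 0.00318), from 10.21 ± 0.23 to 9.70 ± 0.26 (SD, n = 8). Hlcs, the enzyme that attaches biotin to carboxylases, fell by 0.56 (SE 0.13, limma adjusted p = 0.00386), from 6.13 ± 0.26 to 5.57 ± 0.30. Fed samples of Hlcs ranged from 5.74 to 6.42 and fasted samples from 5.15 to 5.93, so the groups overlapped. Transcripts of the acetyl-CoA carboxylases, enzymes that also carry biotin, moved oppositely. Acaca, the cytosolic form, fell by 0.91 (SE 0.14) and Acacb, the form at mitochondria, rose by 1.58 (SE 0.16). Among the transcripts of biotin-carrying proteins measured here, Pcca, Mccc1, Pcx and Acaca fell and Acacb rose. Slc5a6, which carries biotin into cells, had a difference of -0.39 (SE 0.17, limma adjusted p = 0.143).

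Acly, which makes cytosolic acetyl-CoA from citrate, fell by 1.90 (SE 0.14, limma adjusted p = 2.60e-08), and its fed samples (9.65 to 10.91) lay above all fasted samples (8.07 to 8.53). The 1 other gene that rose was Mlycd, malonyl-CoA decarboxylase, by 0.31 (SE 0.097, limma adjusted p = 0.0287), named after its value was seen. Klf15, a transcription factor known to promote amino acid breakdown, had a log2 difference of 0.17 (SE 0.19, limma adjusted p = 0.635).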
